A study of Homo sapiens with 16 samples.

Results

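The translation factors described here are 44 human genes, 44 of 44 found by symbol among the 23709 genes of the deposited tables. They were taken by gene name, by their function in translation: 32 initiation factors, 5 elongation factors, 2 termination factors, the poly(A)-binding protein PABPC1, the repressors EIF4EBP1 and EIF4EBP2, and EIF5A and EIF6. Read counts were compared in 16 polyA RNA libraries, 1 library in each group, from 2 human lung lines cultured at passages 15 to 18. H1299, a lung carcinoma line, was transfected with a plasmid that expresses Flag-tagged FLII (FLII OE) or with the empty Flag plasmid (vector). HBE, labelled as epithelial lung cells like H1299, carried a stable lentiviral shRNA against FLII (FLII KD) or was the negative control (NC). FLII is flightless I, an actin-binding protein of the gelsolin family. Each of these 4 cultures gave 4 libraries: RNA bound to ribosome-nascent chain complexes (RNC, pelleted through sucrose from lysates treated with cycloheximide), nuclear RNA, cytosolic RNA, and mRNA of whole cells. The overexpression is driven from a plasmid, so cells that took up no plasmid may be mixed with cells that did. Depth was 26711771 to 38514467 reads in RNC libraries, 6295282 to 8201848 in nuclear, 5914489 to 9259569 in cytosolic and 5943676 to 8344359 in mRNA libraries. With 1 library per group there is no spread between replicates, no p-value is given, and every interval covers counting error only.

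A ribosome starts on an mRNA with the help of initiation factors. The eIF4F complex (the cap-binding protein EIF4E, the scaffold EIF4G1 and the helicase EIF4A1) loads the small subunit, the many-subunit eIF3 holds it there, and eIF2, recharged by eIF2B, brings the first tRNA. Elongation then needs EEF1A1, which delivers each aminoacyl-tRNA, the exchange proteins EEF1B2, EEF1D and EEF1G, which reload it, and EEF2, which moves the ribosome along. Elongation factor mRNAs are classic TOP mRNAs: they begin with a C followed by a run of C and T bases, and mTOR signalling controls their translation through that run, as it does for ribosomal protein mRNAs and PABPC1. Some initiation factor mRNAs share it.

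The first bases of some members are shown because the results in HBE mRNA are set out by this start. Of the 44 members, 35 had an annotated start in the RefSeq promoter table (GRCh38.p14), and 10 of these 35 (28.6%) had at least 1 start with C as the first transcribed base followed by 4 or more C or T bases. The same search, on the gene's strand and at the first base alone, found this start in 908 of 14665 genes of the tables (6.19%). The 10 members were EEF1A1, EEF2, EEF1B2, EIF2S3, EIF3D, EIF3F, EIF3K, EIF3M, EIF4A2 and EIF4B. In the lines that follow, 5 bases before the start and 25 bases from it are printed 5′ to 3′ on the gene's strand, and the capitals mark the unbroken run of C and T that begins with C at the first base.
EEF1A1: acgttCTTTTTCgcaacgggtttgccgcca
EEF2: gcgttCTCTTCCgccgtcgtcgccgccatc
EEF1B2: cgggtCCTTTTTCCTCTCTTCagcgtgggg
EIF3F: gcctcCTTCTTTCTCgacaagatggccaca
EIF4B: cgggtCTTTTgcgttctctttccctctccc
EEF1G: ggcttactttgcggcagcgccgagaacccc
EIF4E: cggttgtgcgatcagatcgatctaagatgg
EIF2S1: tccgcatgcgcggtggagtgagcgaagcgc
The windows lie at chr6:73521008-73521037 on the minus strand (EEF1A1), chr19:3985439-3985468 on the minus strand (EEF2), chr2:206159890-206159919 on the plus strand (EEF1B2), chr11:7987332-7987361 on the plus strand (EIF3F) and chr12:53006451-53006480 on the plus strand (EIF4B). The other 3 lie at chr11:62573867-62573896 on the minus strand (EEF1G), chr4:98929109-98929138 on the minus strand (EIF4E) and chr14:67360323-67360352 on the plus strand (EIF2S1). The run was 16 bases long at EEF1B2, 10 at EIF3F, 7 at EEF1A1 and at EEF2, and 5 at EIF4B. EEF1G, EIF4E and EIF2S1 had no run at the annotated first base; EEF1G starts there with A followed by C and T bases.

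Before any member is described, the RNC libraries need a caution. FLII had 2725 CPM (reads scaled to the library total) in FLII OE mRNA against 623 CPM in vector mRNA, and 59.9 CPM in FLII KD mRNA against 328 CPM in NC mRNA, and the nuclear and cytosolic pairs moved the same way. In RNC, FLII had 24.4 CPM in the library labelled FLII OE against 389 CPM in the library labelled vector, and 131 CPM in FLII KD against 159 CPM in NC. The summed level of 10 epithelial marker genes was 15.7 to 154 CPM in the H1299 libraries outside RNC and 7862 to 10558 CPM in the HBE libraries outside RNC. In RNC it was 6090 CPM in the library labelled H1299 FLII OE, 20.3 CPM in H1299 vector, 86.9 CPM in HBE FLII KD and 2143 CPM in HBE NC. The summed level of 5 mesenchymal marker genes was 1632 to 7850 CPM in the H1299 libraries outside RNC and 89.6 to 289 CPM in the HBE libraries outside RNC. In RNC it was 106 CPM in FLII OE, 265 CPM in vector, 468 CPM in FLII KD and 525 CPM in NC, lower in both RNC libraries labelled H1299 than in both labelled HBE, the reverse of the other fractions. EEF1A2, the tissue-restricted paralog of EEF1A1 and not a member, had 187 and 180.2 RPKM in H1299 FLII OE and vector mRNA, 0 and 0.06 RPKM in HBE FLII KD and NC mRNA, and in RNC 3.04, 96.6, 81.7 and 23.3 RPKM in the libraries labelled FLII OE, vector, FLII KD and NC. By the epithelial list and EEF1A2 the RNC libraries labelled H1299 FLII OE and HBE FLII KD thus go against their labels. The RNC library labelled NC had epithelial, mesenchymal and EEF1A2 levels between those of the lines, and RNC libraries are named here by their labels only.

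Within a library, elongation factor mRNAs stood far above initiation factor mRNAs (the plot of member levels). Together the 5 elongation genes held 1.62 to 2.44% of all reads in a library (median 1.96%), and the 32 initiation genes 0.341 to 0.982%. Per length, the median elongation gene was 68.7, 85.4, 39.2 and 21.5 times the median initiation gene in RPKM in the RNC libraries labelled FLII OE, vector, FLII KD and NC. The same ratio was 13.4, 13.9, 14.6 and 15.0 in nuclear RNA, 48.8, 40.3, 41.4 and 40.3 in cytosolic RNA, and 17.4, 15.7, 14.5 and 20.4 in mRNA. It was therefore lowest in nuclear RNA and mRNA, and in cytosolic RNA it lay between 40.3 and 48.8 in every library.

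**Figure D1:**
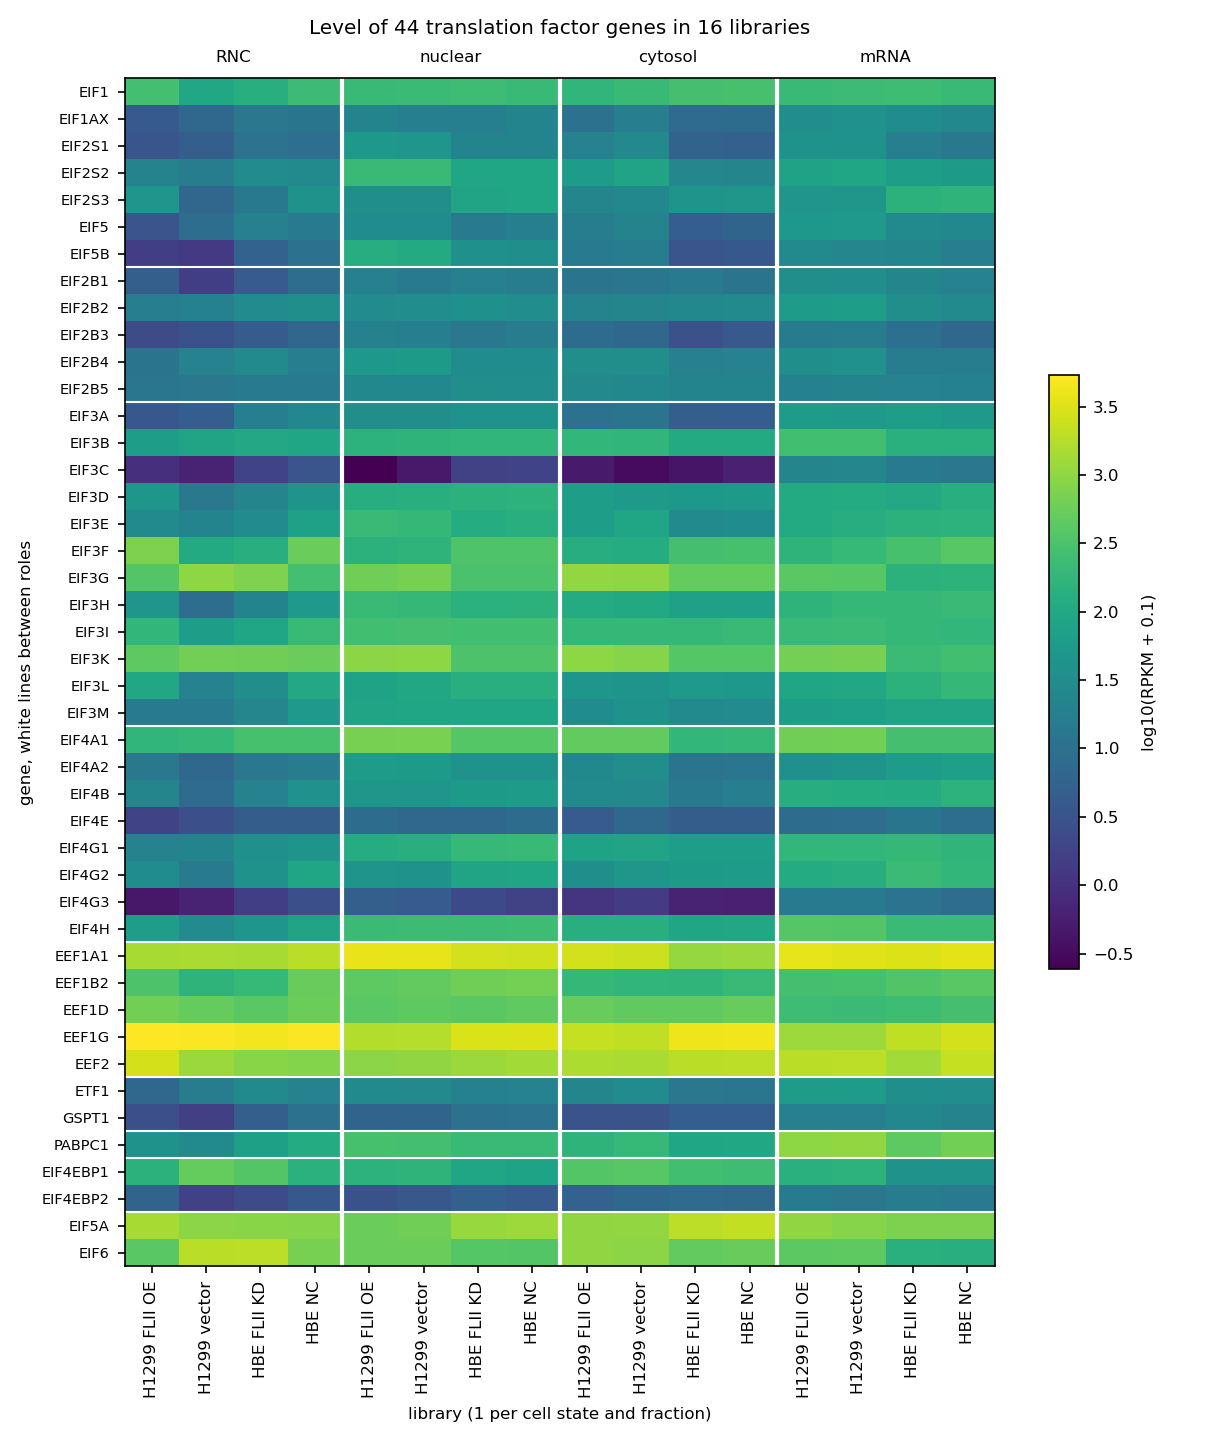
Colour map of the level of each translation factor (down the page, white lines between roles) in each of 16 libraries (across, by fraction), on the log10(RPKM + 0.1) scale. The brightest bands are EEF1A1, EEF1G and EEF2, and PABPC1 runs from 29.0 RPKM in the RNC library labelled vector to 1056 RPKM in vector mRNA.

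The highest member of every library was EEF1A1 or EEF1G. EEF1A1 led all 4 mRNA libraries, with 3632 RPKM in FLII OE and 3298 RPKM in vector H1299 cells, and 3121 RPKM in FLII KD and 3489 RPKM in NC HBE cells. EEF1G, the gamma subunit of the exchange complex, led all 4 RNC libraries with 5354, 5145, 4526 and 5020 RPKM in FLII OE, vector, FLII KD and NC, against 1258, 1222, 2022 and 2686 RPKM in mRNA. EEF2 had 1908 and 2007 RPKM in FLII OE and vector mRNA, and 1337 and 2190 RPKM in FLII KD and NC mRNA. The exchange subunits EEF1D, at 221 to 276 RPKM, and EEF1B2, at 279 to 413 RPKM, were lower in mRNA than EEF1A1, EEF1G and EEF2.

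Initiation factors covered a wide range of levels. EIF4E, the cap-binding protein, was low, with 8.37, 8.51, 11.6 and 8.88 RPKM in FLII OE, vector, FLII KD and NC mRNA. Its scaffold EIF4G1 had 182, 179.6, 193 and 169 RPKM in the same libraries, and the scaffold paralog EIF4G3 had 15.2, 15.2, 11.0 and 8.44 RPKM. EIF2S1, the eIF2 alpha subunit that stress kinases phosphorylate, had 40.3, 41.3, 17.5 and 13.6 RPKM. EIF4G1 thus lay within 169 to 193 RPKM, and EIF2S1 was higher in both H1299 libraries than in both HBE libraries. The share of all genes separated in this way was not computed.

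EIF4EBP1, which blocks EIF4E when mTOR is off, had 139.9 and 155 RPKM in FLII OE and vector mRNA against 41.9 and 41.1 RPKM in FLII KD and NC mRNA. Its paralog EIF4EBP2 had 15.1, 13.0, 16.8 and 15.1 RPKM in the same order. EIF5A, the hypusine-bearing factor that helps ribosomes past difficult stretches, had 1012, 886, 757 and 739 RPKM, and EIF6, which keeps the large ribosomal subunit from joining too early, had 431, 455, 141 and 131 RPKM. EIF4EBP1 and EIF6 did not overlap between the lines in mRNA, and EIF4EBP2 did. Differences between the lines were common: 38.5% of all genes tested had intervals above 0 in H1299 vector over HBE NC mRNA, and 39.7% below. The share of all genes that do not overlap was not computed.

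EIF3C cannot be read reliably. Its near-identical copy EIF3CL took nearly all reads of the pair, EIF3C holding 0.07 to 7.69% of them, and in mRNA of FLII OE, for example, EIF3C had 22.9 RPKM where EIF3CL had 301 RPKM. EEF1A1, EIF5A and PABPC1 also have processed copies in the genome, and reads may have been split or merged between copies in the authors' counting.

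Changes between libraries are given as log2 folds on counts scaled by the trimmed mean of M-values (TMM) of each pair, with 0.5 reads added and at least 20 reads over the pair. A gene was called where it differed by 2-fold or more and the exact 95% interval from its reads excluded 0. A positive value means higher in the first-named group. In bulk RNA, fewer cells of a type and less of an RNA per cell cannot be told apart.

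Outside RNC, no translation factor was called in any FLII pair. In H1299, 0 of 44 members were called in mRNA (0.798% of all genes tested), 0 of 43 in cytosol (2.68%) and 0 of 43 in nuclear RNA (0.599%). In HBE, 0 of 44 were called in mRNA (4.95%), 0 of 43 in cytosol (1.25%) and 0 of 44 in nuclear RNA (0.873%). EIF3C fell under the read minimum where 43 were tested. Smaller differences were outside counting error for many members. In H1299 cytosol 17 of 43 intervals lay above 0 (13.7% of all genes tested) and 13 below (14.8%). In HBE mRNA 9 of 44 lay above 0 (19.5%) and 21 below (22.4%). Intervals narrow as reads increase, and the shares of all genes with such intervals, here and below, are not matched for read count.

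In HBE mRNA after FLII knockdown, elongation factor mRNAs were all lower and initiation factor mRNAs were spread around 0. EEF2 had 1337 RPKM in FLII KD against 2190 RPKM in NC, a log2 fold of −0.84 (95% interval −0.86 to −0.82). EEF1G had a log2 fold of −0.54, EEF1B2 −0.35, EEF1D −0.32 and EEF1A1 −0.29, and each interval lay below 0. PABPC1 had 451 RPKM in FLII KD against 635 RPKM in NC, a log2 fold of −0.63 (−0.66 to −0.59). The elongation genes' share of all reads was 1.93% in FLII KD against 2.44% in NC, the highest of all 16 libraries. The share of 84 cytosolic ribosomal protein genes was 7.27% in FLII KD against 9.18% in NC. A list of 10 other TOP mRNAs had a median log2 fold of −0.40, with none called. The elongation median (−0.35) lay below the initiation median (−0.06) by 0.29, and 25 of 32 initiation members lay above all 5 elongation members. Taken between the medians of the members' interval bounds, that difference ran from −0.53 to −0.09, which is not a confidence interval. The ranges beside later differences of role medians were formed the same way.

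Among initiation factors in that pair, the eIF3 subunits EIF3F (−0.63, interval −0.70 to −0.56), EIF3D (−0.48), EIF3L (−0.46), EIF3K (−0.35), EIF3H (−0.30), EIF3E (−0.21) and EIF3M (−0.15) and the helicase cofactor EIF4B (−0.56) were below 0. EIF4A2, a paralog of the helicase, was at −0.32 and EIF2S3, the eIF2 gamma subunit, at −0.23. On the other side were EIF5B (0.31), the GTPase that joins the subunits, EIF4E (0.26, interval 0.05 to 0.47), EIF4G3 (0.25) and EIF2S1 (0.23, interval 0.05 to 0.42). EIF4G1 (0.06), EIF5A (−0.09) and EIF4EBP1 (−0.10) lay near 0. Of all 44 members, 21 had intervals below 0 (47.7%), against 22.4% of all genes tested, and 9 had intervals above 0 (20.5%), against 19.5%. Because these shares are not matched for read count, deeply counted members can exceed them at small folds.

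Set out by their first bases, all 10 members with the C and T start were below 0 in HBE FLII KD mRNA, with a median of −0.35 and a range of −0.84 (EEF2) to −0.15 (EIF3M). The 25 members with another annotated start had a median of 0.03 and ranged from −0.54 (EEF1G) to 0.31 (EIF5B), with 9 below 0. The start thus ran across the roles: EIF3F, EIF4B, EIF3D and EIF3K lay beside the elongation factors with it, and EEF1G, without it at the annotated base, was as low as they were. Over all genes with a start in the table, 689 with the C and T start had a median of −0.08 against 0.01 for 8506 others, so the members' median lay below that of the start class as a whole. With library totals the median of all genes tested was 0.14 and 7 of 44 members changed sign. On that scale all 10 remained below 0, from −0.71 (EEF2) to −0.02 (EIF3M), and with the trend in GC content taken out all 10 remained below 0 with a median of −0.39, against 0.05 for 24 others.

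**Figure D2:**
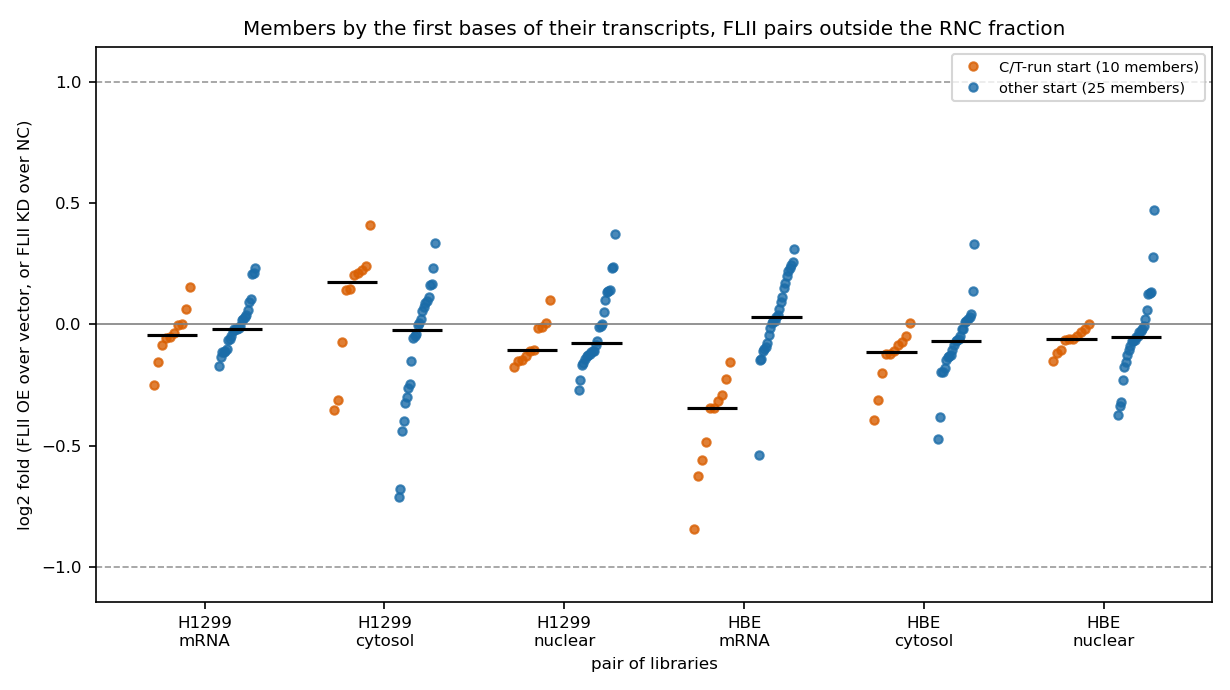
Log2 fold of each member with FLII OE over vector (H1299) and FLII KD over NC (HBE) in mRNA, cytosol and nuclear RNA, with the 10 members that have the C and T start in orange and the 25 others in blue, black bars at medians and dashed lines at 2-fold. In HBE mRNA all 10 members with that start lie below 0, with a median of −0.35 against 0.03 for the others. The ranges of the classes overlap in every pair shown. Of the 10, 9 lie below 0 in HBE cytosol and 9 in HBE nuclear RNA, and 7, 3 and 8 in H1299 mRNA, cytosol and nuclear RNA.

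Outside RNC, the medians of the start classes lay closer together in the other pairs. In RNC they were 0.91 with the start and −0.30 without it in the library labelled FLII OE over vector, and −0.55 and 0.14 in FLII KD over NC. In HBE cytosol the members with the start had a median of −0.11 and the others −0.07, with 9 of 10 and 17 of 24 below 0. In HBE nuclear RNA the medians were −0.06 and −0.05. In H1299, FLII OE over vector, they were −0.04 and −0.02 in mRNA, −0.11 and −0.08 in nuclear RNA, and 0.17 and −0.02 in cytosol. In HBE cytosol 14 of 43 member intervals lay below 0, against 6.43% of all genes, and in HBE nuclear RNA 13 of 44, against 8.45%. With FLII OE in H1299 nuclear RNA, 18 of 43 lay below 0, against 8.13%, and 6 above, against 5.79%. In H1299 mRNA 9 of 44 lay below 0, against 5.75%, and 9 above, against 7.14%. More intervals below 0 than above were thus not limited to the knockdown.

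In H1299, every member tested differed by less than 2-fold between FLII OE and vector outside RNC. In mRNA the members ran from −0.25 (EIF3F) to 0.28 (EIF3A), with EEF1A1 at 0.16, and the elongation median exceeded the initiation median by 0.09 (−0.05 to 0.26). In nuclear RNA it lay 0.11 below (−0.30 to 0.07). In cytosol it exceeded it by 0.27 (0.03 to 0.48): all 5 elongation members were between 0.14 and 0.24, whereas EIF1AX, a start codon scanning factor, was at −0.71, EIF4E at −0.68 and EIF2S1 at −0.44. EIF4E in cytosol had 4.23 RPKM in FLII OE against 7.14 RPKM in vector, and EIF2S1 20.5 RPKM against 29.4 RPKM. In that cytosol pair the folds of all genes ran with GC content (Spearman 0.53 across genes), and these values are given without that trend taken out.

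In RNC, the same pairs differed by large folds. The RNC library labelled FLII OE had 11 members called higher (26.1% of genes) and 7 called lower (23%) against the one labelled vector. The higher ones were led by EIF2S3 (2.60), EIF3F (2.53), EIF3H (2.15), EIF3L (2.00) and EIF3D (1.68), and went on with EIF4EBP2 (1.60), EIF2B1 (1.53), EIF4B (1.32), EIF1 (1.30), EIF3I (1.28) and EEF2 (1.01). The lower ones were EIF6 (−2.42), EIF4EBP1 (−1.98), the GTPase-activating factor EIF5 (−1.65), EIF3G (−1.65), the release factor ETF1 (−1.38), the eIF2B subunit EIF2B4 (−1.07) and EIF1AX (−1.05). EEF1A1 (−0.25) and PABPC1 (0.28) were not called, nor was EIF4E, EIF4G1, EIF2S1 or EIF5A.

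In the HBE pair in RNC, fewer members were called. The library labelled FLII KD had 4 members called higher (18.9% of genes) and 4 called lower (11.7%) against NC. EIF3G (1.87), EIF6 (1.86), EIF4EBP1 (1.71) and EIF2B4 (1.04) were higher, and EIF3F (−1.72), EIF3L (−1.22), EIF2S3 (−1.20) and EEF1B2 (−1.03) were lower. EIF6, for example, had 416 RPKM in the library labelled FLII OE against 1924 in vector, and 1954 in FLII KD against 685 in NC. EIF3F had 737 RPKM in FLII OE against 110.1 in vector, and 131 in FLII KD against 551 in NC. In these members the FLII OE and NC libraries thus lay on 1 side and the vector and FLII KD libraries on the other.

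Members that differ between the cell lines were found on both sides of these RNC differences. In mRNA, 5 members were called higher in the H1299 vector library (21.2% of genes) and 4 lower (22.4%) against HBE NC. The 5 higher ones were EIF4EBP1 (1.65), EIF6 (1.53), EIF2S1 (1.34), EIF3K (1.14) and EIF3G (1.08). All 5 had intervals below 0 in RNC FLII OE over vector (median −1.65) and above 0 in RNC FLII KD over NC (median 1.71). Of 2587 genes called higher in that mRNA comparison and tested in both RNC pairs, 65.3% did the same, and of 2839 called lower 73.8% had the reverse signs. Of the 4 lower ones, EIF2S3 (−1.99), EIF3L (−1.28) and EIF3F (−1.31) were called higher in RNC FLII OE over vector (2.60, 2.00 and 2.53) and called lower in RNC FLII KD over NC (−1.20, −1.22 and −1.72). EEF1G (−1.40) was the exception, at −0.16 and 0.20. The members thus moved as most genes that differ between the lines did. These values move with the epithelial markers of the RNC libraries, and line, label and FLII cannot be told apart in the RNC pairs.

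**Figure D3:**
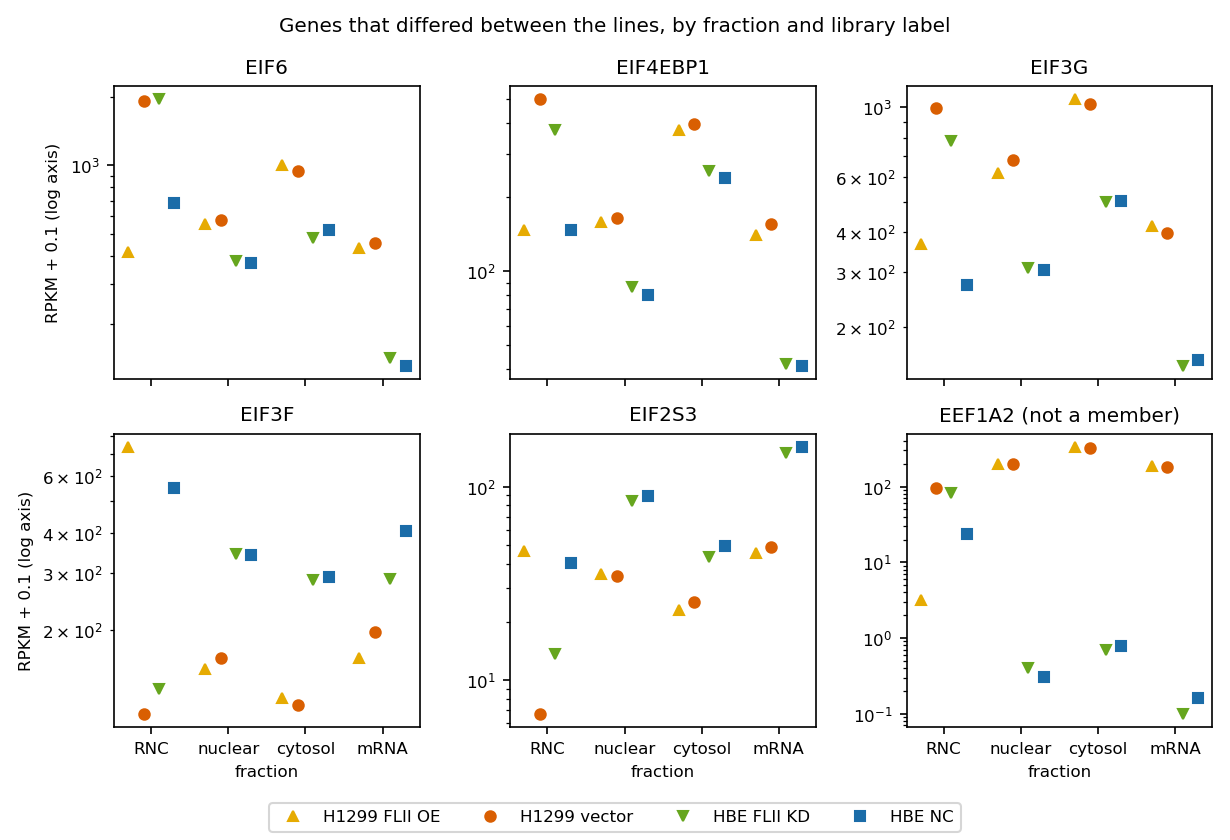
RPKM + 0.1 on log axes of EIF6, EIF4EBP1, EIF3G, EIF3F and EIF2S3, members called between the lines in mRNA, and of EEF1A2, not a member, in each library by fraction and label. Outside RNC both H1299 libraries lie on 1 side of both HBE libraries, whereas in RNC the vector and FLII KD libraries lie together, as at 1924 and 1954 RPKM for EIF6.

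Set against mRNA of the same label, RNC libraries had a higher median fold for elongation than for initiation factors. By epithelial markers and EEF1A2 the RNC libraries labelled FLII OE and FLII KD go against their labels. In those pairs the RNC and mRNA libraries may thus not come from the same line. The elongation median exceeded the initiation median by 2.44 (2.34 to 2.54) in FLII OE, 1.72 (1.58 to 1.87) in vector, 1.01 (0.83 to 1.19) in FLII KD and 1.26 (1.09 to 1.41) in NC. With the trend in transcript length taken out it was 3.26, 2.34, 1.48 and 0.05. The initiation medians lay near those of all genes, at −0.08, −0.29, −0.16 and −0.01, and the elongation medians were 2.36, 1.43, 0.85 and 1.25. Called higher and lower were 15 and 11 members in FLII OE (34.5% and 35.3% of genes), 13 and 10 in vector (32.6% and 31.6%), 11 and 11 in FLII KD (32.3% and 27.3%) and 13 and 8 in NC (24.8% and 17%). These counts, 8 to 15 of 44, lie near the background or below it.

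These folds are relative to the bulk of genes, and the scale matters here. Ribosomal protein mRNAs held 26.3 to 35.3% of reads in RNC and 7.27 to 9.18% in mRNA, and with library totals in place of TMM the median of all genes was −1.88, −2.26, −1.37 and −0.88 in FLII OE, vector, FLII KD and NC. Of 44 members, 12, 15, 16 and 10 changed sign on that scale. EEF1A1 was 0.50, 1.04, 0.27 and 0.06 with TMM and −1.33, −1.15, −1.11 and −0.87 with library totals. EEF2 was 2.36, 1.43, 0.85 and −0.46 with TMM and 0.54, −0.77, −0.53 and −1.39 with library totals. Only EEF1G, EEF1D and EIF5A were higher in RNC, and PABPC1, EIF4G3, EIF4H and EIF3C lower, in all 4 pairs under every scaling, length and GC setting tried.

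By role, the exchange subunits EEF1G (3.91, 4.27, 2.55 and 1.83) and EEF1D (3.23, 3.36, 2.14 and 1.96) were called higher in RNC than in mRNA in all 4 pairs. So were EIF5A (2.32, 2.31, 1.67 and 1.18), EIF6 (1.77, 4.27, 5.17 and 3.32), EIF4EBP1 (1.90, 3.88, 4.55 and 2.76), EIF3G (1.64, 3.51, 3.76 and 1.72) and EIF3K (1.27, 2.08, 2.85 and 1.99). These are 7 of 44 members, where 11.3% of genes were called higher in all 4. In the 2 control pairs alone (vector and NC), 10 of 44 members were called higher in both (17.7% of genes) and 4 lower (9.82%). EIF6, EIF4EBP1, EIF3G and EIF3K in FLII OE came to −0.05, 0.07, −0.19 and −0.56 with library totals, and EIF3K in vector to −0.11.

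PABPC1 lay far below the median of other TOP mRNAs. It had 40.8, 29.0, 72.7 and 113 RPKM in the RNC libraries labelled FLII OE, vector, FLII KD and NC, against 996, 1056, 451 and 635 RPKM in mRNA. Its log2 folds were −2.79 (−2.83 to −2.74), −3.00 (−3.05 to −2.94), −1.24 (−1.29 to −1.20) and −1.56 (−1.59 to −1.52). The 10 other TOP mRNAs, mostly ribosomal protein genes, had medians of 2.22, 1.71, 1.19 and 0.60. Among them 8, 8, 7 and 7 had intervals above 0, and 2, 2, 2 and 1 had intervals below 0. With EIF3C, PABPC1 was called lower in all 4 pairs, where 5.57% of genes were.

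**Figure D4:**
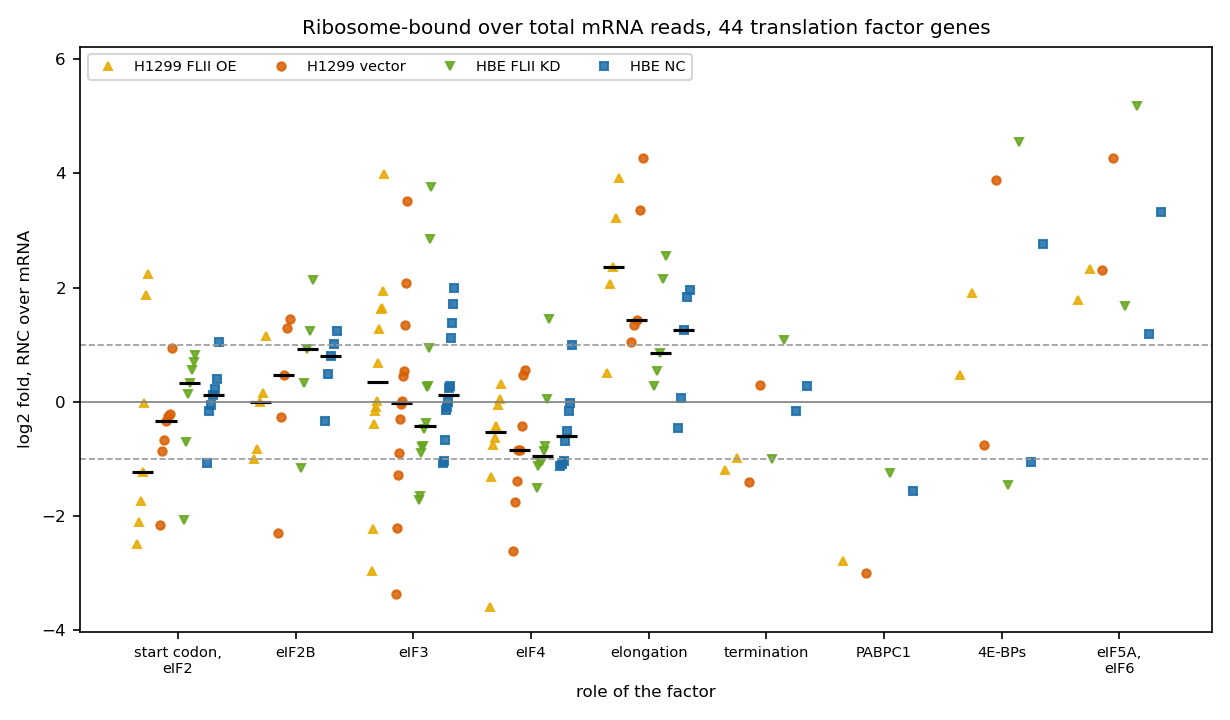
Log2 fold, RNC over mRNA, of each of 44 members by role (across), with a colour and symbol for each culture as labelled, bars at the median of each role with 3 or more members, and dashed lines at 2-fold. The elongation medians are 2.36, 1.43, 0.85 and 1.25 in FLII OE, vector, FLII KD and NC, and PABPC1 lies below −1 in all 4.

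The 8 eIF4 members, which bind the cap and unwind the leader, had medians of −0.53, −0.84, −0.94 and −0.60 in RNC over mRNA, with 0, 0, 1 and 0 called higher and 2, 3, 4 and 3 called lower (35.3%, 31.6%, 27.3% and 17% of genes were called lower). EIF4G1 was at −1.32, −0.85, −1.03 and −1.04 in FLII OE, vector, FLII KD and NC, EIF4G3 at −3.59, −2.62, −1.51 and −0.69, and EIF4B at −0.64, −1.76, −1.12 and −1.13. EIF4E lay near 0, at −0.42, 0.56, 0.05 and −0.02. EIF2S1 was at −1.74 and −0.86 in the pairs labelled H1299 and 0.69 and 0.40 in those labelled HBE, where the RNC labels of FLII OE and FLII KD are in doubt. EIF3H, a peripheral eIF3 subunit, was at 0.02, −2.20, −1.72 and −1.08, and EIF3F, another, at 3.99, 1.35, 0.25 and 1.37, and the 12 eIF3 members ran from −2.96 (EIF3C) to 3.99 (EIF3F) in FLII OE and from −1.08 (EIF3H) to 1.99 (EIF3K) in NC. Across all genes these folds had Spearman correlations of −0.48 to −0.35 with transcript length and of 0.31 to 0.53 with GC content, whose part in the values was not tested beyond the trend fits. Elongation genes had a median GC content of 54.8% against 46.4% for initiation genes, and with the GC trend taken out the elongation median exceeded the initiation median by 0.99, 1.31, 0.64 and 0.94.

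Lists of other translation factors, mitochondrial factors and regulators had lower medians than the elongation factors in RNC over mRNA. Of all genes, 34.5%, 32.6%, 32.3% and 24.8% were called higher and 35.3%, 31.6%, 27.3% and 17% lower, in FLII OE, vector, FLII KD and NC. The other cytosolic translation factors, 20 genes, had medians of −0.90, −0.07, 0.40 and 0.11, with 5, 5, 6 and 4 called higher and 9, 6, 3 and 1 called lower. The 9 mitochondrial factors had medians of −1.08, −1.09, −0.43 and −0.21, with TUFM, the mitochondrial counterpart of EEF1A1, called higher in all 4. The 17 regulators of translation (mTOR pathway members, eIF2 kinases and phosphatase subunits) had medians of −0.76, −0.96, −0.89 and −0.48, with 3, 1, 1 and 1 called higher and 8, 7, 6 and 2 called lower.

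Cytosol over mRNA shares its mRNA libraries with RNC over mRNA, so its values are given beside them. The elongation median exceeded the initiation median by 0.65 (0.42 to 0.85), 0.40 (0.27 to 0.55), 1.94 (1.71 to 2.11) and 1.20 (0.99 to 1.34) in FLII OE, vector, FLII KD and NC. Called higher and lower were 7 and 8 members in FLII OE (22.6% and 30.2% of genes), 6 and 6 in vector (24.0% and 24.7%), 11 and 12 in FLII KD (25.9% and 36.3%) and 11 and 11 in NC (24.2% and 35.6%). EEF1D (1.84, 1.79, 1.84 and 1.69), EEF1G (1.55, 1.45, 1.90 and 1.46), EIF4EBP1 (2.13, 2.08, 3.48 and 3.33), EIF6 (1.93, 1.77, 2.64 and 2.78), EIF3G (2.05, 2.07, 2.61 and 2.47) and EIF3K were called higher in all 4 (15.1% of genes). PABPC1 was called lower here as well (−1.89, −1.72, −1.51 and −1.93), together with EIF3A, EIF4B, EIF4G3, the release factor GSPT1 and EIF3C (18.9% of genes). EIF2S1, EIF4E and EIF4G1 were not called in any of the 4.

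GC content and length also moved with the folds in cytosol over mRNA. Spearman correlations of the folds with GC content across genes were 0.41 to 0.65, and with length −0.58 to −0.53. With the GC trend taken out, the difference between elongation and initiation medians was 0.43 in FLII OE, 0.69 in vector, −0.0036 in FLII KD and −0.28 in NC. It thus kept its sign in H1299 and turned in HBE. PABPC1 was at −1.49, −1.45, −1.25 and −1.68 with that trend taken out, and was lower in every pair under every setting tried.

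RNC set against cytosol gave other values in the pairs labelled H1299 than in those labelled HBE, a difference that was not tested. By epithelial markers and EEF1A2 the RNC libraries labelled FLII OE and FLII KD go against their labels. In those pairs the RNC and cytosol libraries may thus not come from the same line. The elongation median exceeded the initiation median by 1.96 (1.67 to 2.19) in FLII OE and 1.26 (1.06 to 1.57) in vector, was level in FLII KD (0.00, −0.26 to 0.24) and lay below it by 0.24 (−0.35 to −0.00) in NC. With the length trend taken out the NC difference turned to 0.12, and with the GC trend taken out to 0.50 (0.44 in FLII KD). Spearman correlations of the folds with GC content across genes were 0.275, 0.413, −0.216 and −0.383 in FLII OE, vector, FLII KD and NC. Called higher and lower were 11 and 4 members in FLII OE (29% and 22% of genes), 10 and 6 in vector (22.2% and 18.1%), 7 and 4 in FLII KD (30.6% and 21.9%) and 10 and 2 in NC (28.8% and 15.3%). EEF1G was at 2.19, 2.69, 0.29 and 0.28, EEF2 at 1.75, 0.99, −0.87 and −1.19, and EEF1B2 at 1.71, 1.25, 0.38 and 1.36. EIF5A was at 1.43, 1.18, −0.98 and −1.24, and EIF5B at −2.47, −2.42, 0.90 and 1.45. PABPC1 was called lower in both pairs labelled H1299 (−1.07 and −1.41) and not called in those labelled HBE (−0.09 and 0.27). The lowest of the 10 other TOP mRNAs in the pairs labelled H1299, NAP1L1, was at −1.77 and −1.42, where that list had medians of 0.94 and 0.23. With library totals 21 of 44 members changed sign in vector and 7 in FLII OE, EIF5A in vector (−0.17) and EEF2 in vector (−0.36) among them.

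Nuclear against cytosolic RNA placed the roles the other way round. The elongation median lay below the initiation median by 1.08 (−1.28 to −0.89), 0.64 (−0.78 to −0.54), 1.41 (−1.63 to −1.20) and 1.50 (−1.65 to −1.03) in FLII OE, vector, FLII KD and NC. Called higher and lower in nuclear RNA were 5 and 6 of 43 members in FLII OE (17.9% and 18.3% of genes), 5 and 4 of 43 in vector (14.8% and 12.7%), 15 and 5 of 44 in FLII KD (23.9% and 17.6%) and 15 and 6 of 44 in NC (22.8% and 17%). The higher members were initiation factors and, in 3 pairs, EEF1B2.

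EIF5B was the most nuclear member in every culture, with 124 RPKM in nuclear RNA against 15.3 in cytosol in FLII OE, 109.8 against 16.6 in vector, 37.4 against 3.33 in FLII KD and 35.1 against 3.78 in NC. Its log2 folds were 2.47 (2.33 to 2.62), 2.40 (2.28 to 2.51), 2.93 (2.64 to 3.23) and 2.67 (2.39 to 2.98). EIF3A, the largest eIF3 subunit (1.22, 1.27, 2.46 and 2.57), and EIF4G3 (1.68, 1.40, 1.48 and 1.04) were also called higher in all 4 (8.41% of genes). Over all scaling, length and GC settings the value nearest 0 was 1.72 for EIF5B, 0.61 for EIF3A and 0.38 for EIF4G3, and those of EIF3A and EIF4G3 lie within 2-fold. In HBE the scaffold EIF4G1 (1.02 and 1.13 in FLII KD and NC) and EIF2S1 (1.37 and 1.58) were called too, whereas in H1299 FLII OE and vector they were at 0.04 and 0.31, and at 0.75 and 0.27.

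On the cytosolic side, the repressors EIF4EBP1 (−1.79, −1.60, −2.13 and −2.11) and EIF4EBP2 (−1.44, −1.32, −1.14 and −1.40) and EIF5A (−1.37, −1.13, −1.38 and −1.31) were called lower in nuclear RNA in all 4 (9.2% of genes). Their values nearest 0 over the settings were −0.52, −0.51 and −0.71, also within 2-fold. EEF2 (−1.30, −0.88, −1.18 and −1.11), EEF1G (−0.99, −0.53, −0.99 and −0.97), EIF6 (−1.41, −1.05, −0.90 and −1.02) and EIF3G (−1.33, −0.92, −1.26 and −1.26) lay on the same side. EEF1A1 (−0.07, 0.26, 0.72 and 0.60), PABPC1 (0.30, 0.12, 0.68 and 0.54), EIF4E (0.39, −0.41, 0.08 and 0.32) and EEF1B2 (0.67, 1.16, 1.31 and 1.12) lay near 0 or on the nuclear side in most cultures, with EIF4E in vector and EEF1A1 in FLII OE below 0. EEF1A1 in FLII OE turned to 0.48 with library totals, a scale on which the median of all genes was 0.32 to 0.73.

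**Figure D5:**
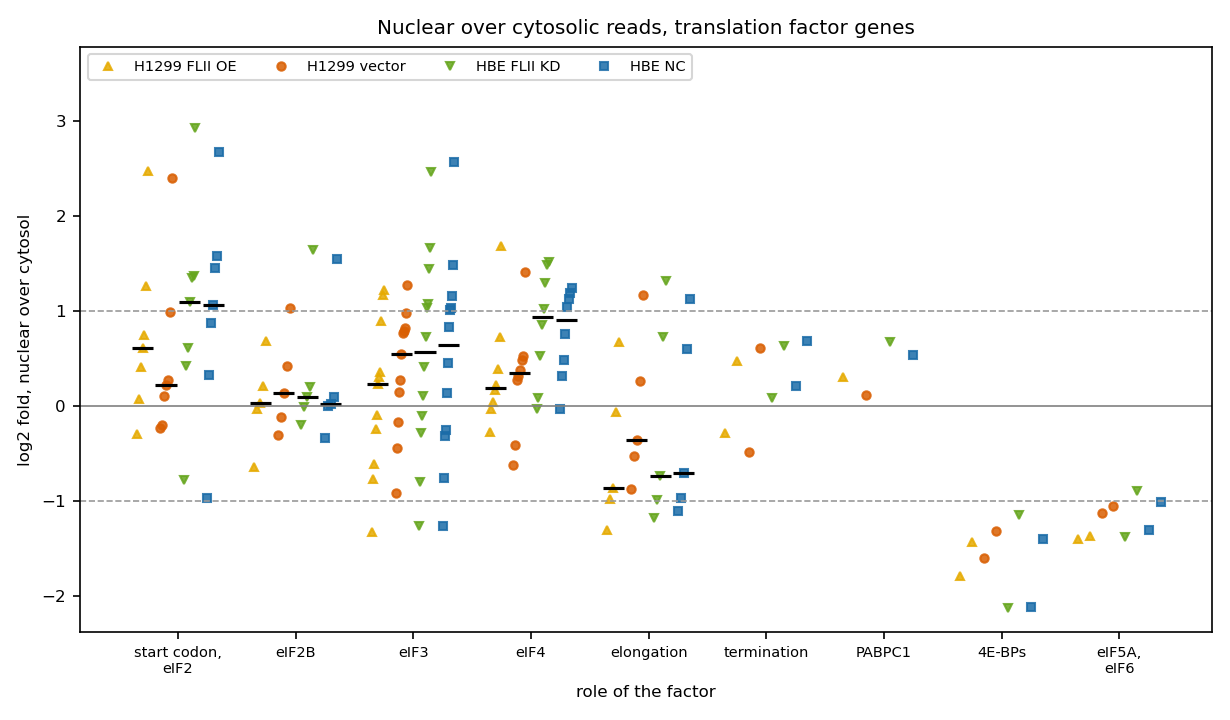
Log2 fold, nuclear over cytosolic RNA, of each member by role (across), with a colour and symbol for each culture, bars at the median of each role with 3 or more members, and dashed lines at 2-fold. EIF5B is the top point of the start codon and eIF2 group at 2.40 to 2.93, the EIF4EBP1 and EIF4EBP2 points (4E-BPs) all lie below −1, and the elongation members spread from −1.30 to 1.31.

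GC content moved with this contrast too, with a Spearman correlation across genes of −0.63 to −0.45, and length with 0.31 to 0.38. With the GC trend taken out, the elongation median lay below the initiation median by 0.27, 0.11, 0.15 and 0.24 in FLII OE, vector, FLII KD and NC (differences of −0.27, −0.11, −0.15 and −0.24). Under every scaling, length and GC setting 11 members kept the nuclear side in all 4 cultures, among them EIF5B, EIF3A, EIF4G3, EEF1B2 and EIF2S2, and 6 kept the cytosolic side (EIF4EBP1, EIF4EBP2, EIF5A, EEF2, EEF1G and EIF3G).

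The nuclear to cytosolic ratio of no translation factor was called as changed with FLII. In H1299, the change in that ratio with FLII OE gave 0 members called (5.2% of genes), and the elongation median lay below the initiation median by 0.29 (−0.61 to −0.03). Across all genes that change ran with GC content (Spearman −0.534), whose median was 54.8% in elongation and 46.4% in initiation genes. The difference of 0.29 is given without that trend taken out. In HBE, with FLII KD, 0 members were called (1.22%), and the difference was −0.05 (−0.26 to 0.23). The change in the RNC to mRNA ratio, which rests on the RNC libraries that go against their labels, called 11 members higher and 6 lower in H1299 (22.2% and 23.5% of genes), and 5 higher and 1 lower in HBE (15% and 14.7%), with differences between the role medians of 0.19 (−0.14 to 0.44) and 0.44 (0.21 to 0.58).

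Between the lines, H1299 vector over HBE NC, the elongation median was below the initiation median outside RNC and above it in RNC. In mRNA the elongation median was −0.59 against 0.13 for initiation, a difference of −0.71 (−0.90 to −0.53), and all 5 elongation members lay below the initiation median. HBE NC mRNA is also the reference of FLII KD over NC in mRNA, so both comparisons rest on that library. The difference was −0.92 (−1.13 to −0.52) in cytosol and −0.36 (−0.53 to −0.20) in nuclear RNA, and 1.17 (1.09 to 1.30) in RNC. Beside the 5 and 4 of mRNA, 8 members were called higher and 12 lower in RNC (25.6% and 32.8% of genes), 6 and 5 in cytosol (26.7% and 22.2%) and 3 and 7 in nuclear RNA (22.3% and 23.1%). All 8 counts lay below these shares of genes.

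EIF2S3 and EIF3F were called lower in H1299 in all 4 fractions (9.98% of genes). EIF2S3 had 48.5 RPKM in vector mRNA against 159.8 RPKM in NC mRNA, and log2 folds of −1.61, −1.62, −1.41 and −1.99 in RNC, nuclear RNA, cytosol and mRNA. EIF3F had 197 RPKM in vector mRNA against 406 RPKM in NC mRNA, and log2 folds of −1.34, −1.30, −1.78 and −1.31. EIF3K was higher in H1299 in all 4, at 1.21, 1.36, 0.75 and 1.14, and so were EIF4EBP1 (2.75, 0.80, 0.27 and 1.65), EIF6 (2.47, 0.38, 0.40 and 1.53) and EIF3G (2.85, 0.91, 0.55 and 1.08). These directions held under every scaling, length and GC setting tried.

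Other members differed between the lines by fraction. EEF1G was at −1.08 in nuclear RNA, −1.54 in cytosol and −1.40 in mRNA but 1.02 in RNC, and EEF2 at −0.59, −0.84 and −0.39 but 1.48 in RNC. EIF5B was at −2.06 in RNC, 1.41 in nuclear RNA, 1.67 in cytosol and 0.23 in mRNA. EIF5A was at 1.10, −1.26, −1.46 and −0.00 in the same order, EEF1A1 at 0.62, 0.28, 0.61 and −0.35, and PABPC1 at −0.99, 0.15, 0.55 and 0.47. EIF2S1 was at 0.07, 0.76, 2.05 and 1.34, EIF4E at 0.24, −0.52, 0.20 and −0.33, and EIF4G1 at 0.01, −0.91, −0.11 and −0.17. EEF1G, EEF2 and EIF5B thus had opposite signs in RNC and in the other fractions. With library totals EEF1G in RNC was near 0, at 0.04, with EEF2 at 0.50 and EIF5B at −3.05. With library totals 13 of 44 members changed sign in RNC, against 4 in mRNA and in nuclear RNA and 7 of 43 in cytosol.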

How the data were processed

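The authors deposited 1 table per library with a read count and an RPKM per gene, per the file headers. RPKM recomputed from the deposited counts, lengths and totals matched within a relative difference of 5.5e-07. How reads were aligned and counted, and how nuclei were separated, is not given in the sources used here. The genome build was GRCh37 (hg19), per the submitters' processing notes. Libraries were made from polyA RNA with an NEBNext mRNA kit, per the labels' protocols.

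Counts of each pair were scaled by TMM (edgeR 4.0.16, R 4.3.3). Log2 folds used 0.5 added reads and a minimum of 20 reads over the pair, with exact conditional binomial (Clopper-Pearson) 95% intervals. A gene was called at 2-fold with an interval that excluded 0. The calculation was tested on simulated counts that held counting error only and changed few genes. That test does not cover the scaling of libraries that differ in many genes, nor variation between replicates. Each of 28 pairs of libraries and 4 changes of ratio was run on all genes. Difference of role medians means the median of 5 elongation genes minus that of 32 initiation genes. The range beside it sets the median of 1 role's lower interval bounds against the median of the other role's upper bounds, and the reverse. It is not a confidence interval of the difference. Medians of 20 bins of length or GC content were subtracted as alternatives (43 members had a GC value), and DESeq2 1.42.0 size factors, library totals and other minimums were also tried.

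The members and the gene lists were chosen with earlier results of these data known. Genes named are EEF1A1, EEF2, PABPC1, EIF4E, EIF4G1, EIF2S1, EIF5A and EIF4EBP1 throughout, members called (6 per direction at most where there were more), and the extremes of each role. Other members named, among them those beyond 6 called higher or lower in RNC FLII OE over vector and those shown for the C and T start or their values in HBE mRNA, were chosen after their values were seen. Starts came from RefSeq (GRCh38.p14), a different build from the counts, and were joined by symbol.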

Additional observations from a re-analysis of the deposited data

Results flagged for a closer look

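EIF5B and EIF5A lay on opposite sides of 0 in the H1299 and the HBE libraries in RNC over cytosol. EIF5B was at −2.47 (95% counting interval −2.70 to −2.25) in FLII OE and −2.42 (−2.65 to −2.20) in vector, and at 0.90 (0.60 to 1.22) in FLII KD and 1.45 (1.17 to 1.75) in NC. H1299 vector minus HBE NC was −3.87. EIF5A was at 1.43 (1.40 to 1.46) in FLII OE and 1.18 (1.15 to 1.21) in vector, and at −0.98 in FLII KD and −1.24 (−1.27 to −1.21) in NC, and H1299 vector minus HBE NC was 2.42. With 1 library per group the differences between lines were not tested. Across all genes these folds also ran with GC content in opposite directions, with Spearman correlations of 0.275 and 0.413 in FLII OE and vector. In FLII KD and NC they were −0.216 and −0.383. EIF5B has a GC content of 38.6% and EIF5A of 57.3%, and their folds are given without that trend taken out. The RNC libraries labelled FLII OE and FLII KD go against their labels by epithelial markers, and with library totals EIF5A in vector was at −0.17.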

How the results depend on the processing

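Of the comparisons between settings, 673 were labelled the same, 106 moved and 4 turned. A count of members called was the same when within 1.5-fold of the main count, whatever the direction of the calls. A difference of medians was the same when it lay within the range of the main value, which can span 0. No paired analysis was possible because each group holds 1 library. Members called per comparison, on average, went with a 1.5-fold threshold to 0.833 (main value 0) in FLII pairs outside RNC, 22 (13) in RNC FLII pairs, 25.2 (13.5) in RNC over cytosol, 25.2 (15.2) in nuclear over cytosol, 25 (12.5) between lines, 25.5 (11.5) in the change of RNC over mRNA and 1 (0) in that of nuclear over cytosol. With library totals they were 22 in RNC over cytosol, 18 in the change of RNC over mRNA and 1 in that of nuclear over cytosol, and with the GC trend removed 6.5 in nuclear over cytosol. The difference of role medians moved, with the length trend removed, to 1.91 in RNC over mRNA (1.49) and 1.17 in cytosol over mRNA (0.92). With the GC trend removed it was 0.97, 0.21, −0.20 in nuclear over cytosol (−1.24) and −0.28 between lines (−0.54). Without EEF1A1 and EIF3C it was 2.10 in RNC over mRNA, 1.39 in cytosol over mRNA, 0.48 in RNC FLII pairs (0.25) and 0.59 in the change of RNC over mRNA (0.31). It turned in RNC over cytosol of HBE NC (−0.24), to 0.12 with length and 0.50 with GC removed, and in cytosol over mRNA with GC removed, to −0.0036 in FLII KD and −0.28 in NC. GC removal and the start settings were chosen after seeing the data. The causes were not tested.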
